A study of Mus musculus with 7 samples.

Results

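The 8 genes described here mark monocytes and were read in whole transcriptome libraries of mouse T-cells, and their read counts were compared between ORP4L KI mice and WT littermates. The members were chosen by gene symbol, as 8 of the 25033 genes listed in every library, and each symbol matched 1 entry. Of these, 4 are counted here as genes of classical monocytes (Ly6c2, Ccr2, Cd14 and Fcgr1), 2 as genes of nonclassical monocytes (Cx3cr1 and Treml4) and 2 as genes of both subsets (Csf1r and Adgre1). The libraries came from 3 WT and 4 ORP4L KI mice of strain C57BL/6J, 1 library per mouse, with a labelled age of 15 months in both groups and a cell type labelled as primary T-cells. ORP4L KI mice carried human ORP4L, a lipid-binding protein that the study examined as a cause of T-cell leukaemia, in the Rosa26 locus behind a CAG promoter and a loxP-flanked stop, with an IRES-EGFP behind it, and Lck-Cre removed that stop in T-lineage cells. Neither group received a treatment according to the labels. The study describes these ORP4L KI mice as moribund, so genotype and state of health cannot be told apart. Whether the WT littermates carried Lck-Cre or the unrecombined allele is not given in the sources used here. T-cells were taken from blood or spleen with a kit for naive CD4+ T-cells and then cultured with IL-2 and PHA, by the general methods, and which of these each library came from, or whether it was cultured first, is not given there.

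Monocytes are myeloid cells of blood, marrow and spleen that arise from progenitors under CSF1 and its receptor, encoded by Csf1r. In mice, classical monocytes carry much Ly6C and the chemokine receptor CCR2, leave the marrow along CCL2 and enter inflamed tissue. Nonclassical monocytes carry little Ly6C and much CX3CR1, patrol vessel walls, and derive in large part from classical ones with the help of the nuclear receptor NR4A1. None of these genes is exclusive to monocytes. Ly6c2 is also read in granulocytes and in memory T-cells, Cx3cr1 in NK cells and effector T-cells, Adgre1 in macrophages, Treml4 in splenic dendritic cells and red pulp macrophages, and Csf1r in macrophages and some dendritic cells.

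Total counts ranged from 12918187 to 15912921 in WT and from 16757959 to 19665679 in ORP4L KI. Reads listed under the mouse gene Osbp2, which encodes mouse ORP4L, numbered 0, 0 and 1 in WT replicates 1 to 3 and 188, 742, 155 and 443 in ORP4L KI replicates 1 to 4. The introduced sequence is human and the reads were mapped to a mouse reference, so reads of the transgene and of mouse Osbp2 are not separated here. All 10 T-cell markers examined had reads in every library, took 0.214% to 0.306% of the counts in WT and 0.112% to 0.391% in ORP4L KI, and none was called between the groups. Cd8a, which a CD4+ isolation would leave out, was among them, at 39.5 to 62.8 RPKM (reads per length and library size, as deposited) in WT and 21.2 to 78.7 RPKM in ORP4L KI. Per length, however, Cd14 stood above the T-cell receptor gene Cd3e in every library but ORP4L KI replicate 2. The RPKM of Cd14 ranged from 206 to 500 in WT and from 138 to 519 in ORP4L KI, and that of Cd3e from 78.7 to 130 in WT and from 66.8 to 183 in ORP4L KI. All 10 B cell and all 10 erythroid markers examined also had reads in every library, so RNA of other cells was present under the T-cell label in both groups. The erythroid markers took 1.08% to 1.85% of the counts in WT and 0.119% to 0.854% in ORP4L KI, without overlap. The B cell markers took 0.0402% to 0.0674% in WT and 0.0235% to 0.0635% in ORP4L KI, which overlapped. The 15 granulocyte markers, none of them at 0 in any library, took 0.216% to 0.552% of the counts in WT and 1.15% to 12.3% in ORP4L KI, with 14 of 15 called higher in ORP4L KI (9 without WT replicate 3). ORP4L KI replicate 1 stood apart with the 12.3%. The labels do not say more about how the mice were kept or processed, so p-values measure the spread between these libraries.

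A gene is called here if edgeR's quasi-likelihood test gave it an unadjusted p below 0.01 together with a log2 fold change beyond 1 in either direction, which are the thresholds the study drew for its own comparison. All 8 members passed the filter on low counts. Csf1r was called lower in ORP4L KI, 1 of 8 members, beside 2.30% of the 13462 genes tested. Ly6c2 was called higher, also 1 of 8, beside 2.38% of all genes, and in either direction 2 of 8 members stood beside 4.68% of all genes. No member had an adjusted p under 0.05 by that test, which 0.0223% of all genes reached. At an unadjusted p under 0.05 there were 4 members (Csf1r, Adgre1, Ly6c2 and Treml4), and DESeq2's Wald test, edgeR's exact test and edgeR's likelihood ratio test each put 3 members (Csf1r, Adgre1 and Ly6c2) at an adjusted p under 0.05. In 3 of 8 members the groups did not overlap, Csf1r and Adgre1 with every ORP4L KI library below every WT library and Ly6c2 with every one above, beside 13.8% of all genes in either direction. The median log2 fold change was -0.55 over the 8 members and 0.0135 over all genes tested. The number of members called was 0 without WT replicate 2 and 1 without ORP4L KI replicate 4. The number whose groups did not overlap was 5 without WT replicate 3, 5 without ORP4L KI replicate 1 and 5 with libraries scaled by total counts alone.

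**Figure D1:**
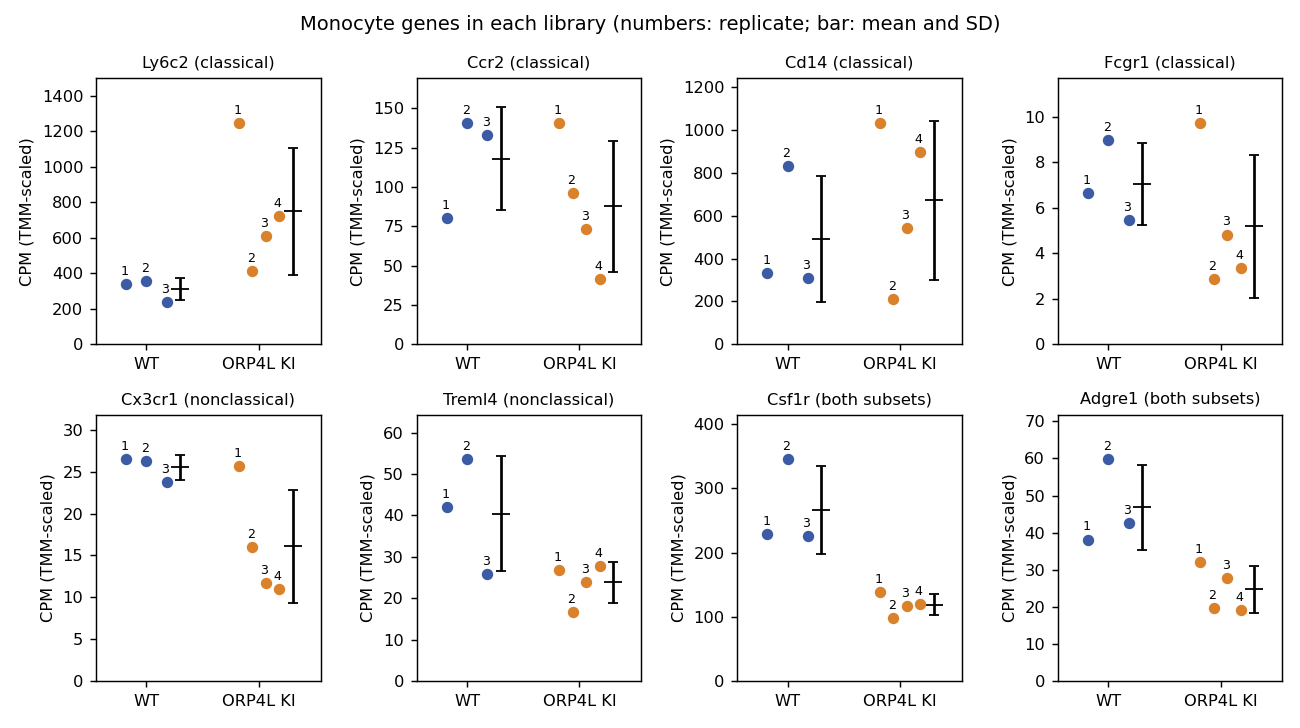
CPM (the read count relative to library size, scaled by TMM) of the 8 members, 1 panel per gene and 1 point per library labelled with its replicate number, WT in blue and ORP4L KI in orange, with the mean and SD of each group in black. Csf1r lay between 226 and 345 in WT and between 98.3 and 138 in ORP4L KI, and Ly6c2 lay between 237 and 356 in WT and between 416 and 1249 in ORP4L KI, while the groups of Ccr2, Cd14, Fcgr1, Cx3cr1 and Treml4 overlapped.

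Csf1r encodes the receptor of CSF1 and IL-34, on which monocytes and macrophages depend for survival. It lies at chr18:61105572-61131139 in RefSeq's annotation of GRCm38.p6. Csf1r had 3676, 5489 and 3218 reads in WT replicates 1 to 3 and 2275, 1795, 2034 and 1932 reads in ORP4L KI replicates 1 to 4. As CPM, the read count relative to the size of the library after TMM scaling, these were 228, 345 and 226 in WT and 138, 98.3, 117 and 120 in ORP4L KI. The 4 ORP4L KI libraries sat close together and below all WT libraries, of which WT replicate 2 was the highest. The mean was 267 ± 68.1 CPM (SD, n = 3) in WT and 118 ± 16.5 CPM (SD, n = 4) in ORP4L KI, a log2 fold change of -1.17 with a standard error of 0.22 and an edgeR adjusted p of 0.0655. The exact two-sided permutation test over the 35 splits of 4 against 3 libraries gave p = 0.0286, the smallest it can give. Without WT replicate 2 the log2 fold change was -0.94 and Csf1r was no longer called. In these bulk samples, fewer cells of a type and less RNA per cell cannot be told apart, here and in every result that follows.

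Adgre1 encodes F4/80, an adhesion receptor on macrophages and, at a lower level, on monocytes of both subsets. It lies at chr17:57358581-57483529. Its 614, 950 and 605 reads in WT gave 38.1, 59.7 and 42.5 CPM, and its 527, 358, 485 and 307 reads in ORP4L KI gave 32.1, 19.6, 27.9 and 19.1 CPM. As for Csf1r, WT replicate 2 was the highest library and no ORP4L KI library reached a WT one, with ORP4L KI replicate 1 the nearest. The means were 46.8 ± 11.4 CPM (SD, n = 3) and 24.7 ± 6.37 CPM (SD, n = 4). The log2 fold change of -0.92 ± 0.25 (SE; edgeR adjusted p = 0.139) had an unadjusted p of 0.00508 but missed the fold threshold, and the exact permutation p was 0.0571. Scaling by total counts alone, which moved the median of all genes by -0.14, put it at -1.08 and past both thresholds. The log2 ratio of Adgre1 to Csf1r reads within a library differed between the group means by 0.22, and the groups overlapped.

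Of the 7 genes of the CSF1 axis, 6 were tested, and Csf1r and Flt3 were called lower while none was called higher. Flt3, the receptor that directs dendritic cell development, had 86.6, 138 and 90.2 CPM in WT and 29.7, 33.8, 58.2 and 32.7 CPM in ORP4L KI, a log2 fold change of -1.44 with a standard error of 0.28. The groups of Flt3 did not overlap, and without WT replicate 2 a single gene of the axis was called. Csf1, the ligand, gave a log2 fold change of 0.19 ± 0.18 (SE), and Il34, the other ligand, did not pass the filter at 0.248 CPM or less in every library. The granulocyte-macrophage receptor genes Csf2ra and Csf2rb gave 0.11 ± 0.39 and -0.42 ± 0.34, and Csf3r, the G-CSF receptor gene, gave -0.99 ± 0.38. Reads of Csf1r per read of Csf2ra were 1.62, 1.44 and 1.62 in WT and 0.466, 1.15, 0.727 and 0.581 in ORP4L KI, lower in every ORP4L KI library. Against Spi1, which encodes the myeloid factor PU.1, and against the myeloid adaptor gene Tyrobp, the log2 ratio of Csf1r differed by -1.01 and -1.12 between the group means, and the groups overlapped in both.

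Among 10 monocyte transcription factor genes, 1 was called lower and none higher (2 lower without WT replicate 3). Irf8, which encodes a factor needed for monocyte and dendritic cell progenitors, had 375, 428 and 252 CPM in WT and 108, 128, 198 and 137 CPM in ORP4L KI, so that no library of one group reached the other. Its log2 fold change was -1.30 with a standard error of 0.27 and an edgeR adjusted p of 0.0708. The groups did not overlap for Irf5 (-0.83 ± 0.22) and Bcl6 (-0.57 ± 0.19) either, both below the fold threshold. Spi1 gave -0.09 ± 0.45, Cebpb, a factor of granulocytes and nonclassical monocytes, 0.42 ± 0.46, and Klf4, a factor of monocyte differentiation, 0.09 ± 0.23. Nr4a1, the factor of nonclassical monocytes, gave -0.16 ± 0.25.

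Markers of other cells that can hold Csf1r, Adgre1 or Flt3 differed as well. Of 9 dendritic cell markers, 7 were called lower, and their summed share of the counts was 0.0553% to 0.0773% in WT and 0.0143% to 0.0271% in ORP4L KI. Flt3 is 1 of these 9. Cd209a, a lectin of conventional dendritic cells, had 32.9, 54.5 and 37.6 CPM in WT and 6.03, 6.41, 10.5 and 8.40 CPM in ORP4L KI, and it alone of this list had an adjusted p under 0.05 (0.0471, edgeR). Of 11 red pulp macrophage markers, Spic, Hpgd and Mertk were called lower, with summed shares of 0.0264% to 0.0495% in WT and 0.0184% to 0.0276% in ORP4L KI. The count of 3 fell to 1 without WT replicate 1, without WT replicate 2 and without ORP4L KI replicate 1, 2 or 3. No marker of either list was at 0 in any library. The part of these cells in the Csf1r and Adgre1 results was not tested.

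Cx3cr1 encodes the fractalkine receptor, carried at a high level by nonclassical monocytes. It lies at chr9:120048683-120068296. It had 426, 417 and 339 reads in WT and 421, 291, 204 and 177 reads in ORP4L KI, which gave 26.5, 26.2 and 23.8 CPM and 25.6, 15.9, 11.7 and 11.01 CPM. WT libraries lay close together, and ORP4L KI replicates 2, 3 and 4 were below them while ORP4L KI replicate 1 lay within their range. The means of 25.5 ± 1.47 CPM (SD, n = 3) and 16.1 ± 6.73 CPM (SD, n = 4) gave a log2 fold change of -0.67 with a standard error of 0.30. The edgeR adjusted p was 0.370 and the exact permutation p was 0.0857. Without ORP4L KI replicate 1 the log2 fold change was -0.99, and it was not called. Of 9 NK cell markers, Ncr1, Klrb1c, Klre1, Gzma and Klra8 were called lower and none higher, and none was at 0. Eomes, a factor of NK cells and memory T-cells on the same list, gave 1.59 ± 0.50 (SE) and was not called, at 65.9 to 101 CPM in WT and 105 to 534 CPM in ORP4L KI, with every ORP4L KI library above every WT library. Without ORP4L KI replicate 1 the list had 1 call higher and 4 lower. The summed share of the 9 markers was 0.0641% to 0.0778% in WT and 0.0242% to 0.0960% in ORP4L KI. The part of NK cells in the Cx3cr1 values was not tested.

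Treml4 encodes an immunoglobulin-type receptor that marks nonclassical monocytes, at chr17:48264200-48275607. The WT libraries had 676, 851 and 367 reads, or 42.0, 53.5 and 25.8 CPM, and the ORP4L KI libraries had 440, 305, 415 and 447 reads, or 26.8, 16.7, 23.8 and 27.8 CPM. WT replicate 3 fell among the ORP4L KI libraries, and WT replicates 1 and 2 were above all of them. The log2 fold change was -0.77 with a standard error of 0.28 (40.4 ± 13.9 CPM in WT, n = 3, and 23.8 ± 5.01 CPM in ORP4L KI, n = 4, both ± SD). It was not called, with an unadjusted p of 0.0220, an edgeR adjusted p of 0.254 and an exact permutation p of 0.0857. Without WT replicate 3 it was -1.005 and called. None of the 7 TREM family genes was called (2 higher without ORP4L KI replicate 2), and the other members of that family ranged up to 2.12 ± 0.71 (SE) for Trem3, a receptor of granulocytes and macrophages.

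A further 10 nonclassical monocyte genes were examined for the same direction. Of these, 4 were called lower (2 without WT replicate 2) and none higher, and the median log2 fold change of the 10 was -0.93. Ace, which encodes angiotensin-converting enzyme, had 113, 116 and 72.2 CPM in WT and 35.4, 38.2, 40.8 and 45.3 CPM in ORP4L KI, with a log2 fold change of -1.33 and a standard error of 0.21. Every ORP4L KI library of Ace lay well below every WT library. The others called were Itgax (-1.41 ± 0.29, SE), which encodes CD11c and is also on the dendritic cell list, Cd36 (-1.28 ± 0.36), a scavenger receptor gene, and Adgre4 (-1.02 ± 0.26), a relative of Adgre1 also known as EMR4. Fcgr4, the Fc receptor of nonclassical monocytes and granulocytes, was the only gene of the 10 with a positive value, 1.24 ± 0.56, and it was not called. Of the 9 chemokine ligands and receptors of monocytes, 7 were tested, and Cx3cl1, the ligand of CX3CR1, was called lower at 2.86, 6.16 and 2.32 CPM in WT and 0.122, 0.438, 0.976 and 0.933 CPM in ORP4L KI. Without WT replicate 2 Cx3cl1 was not called.

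**Figure D2:**
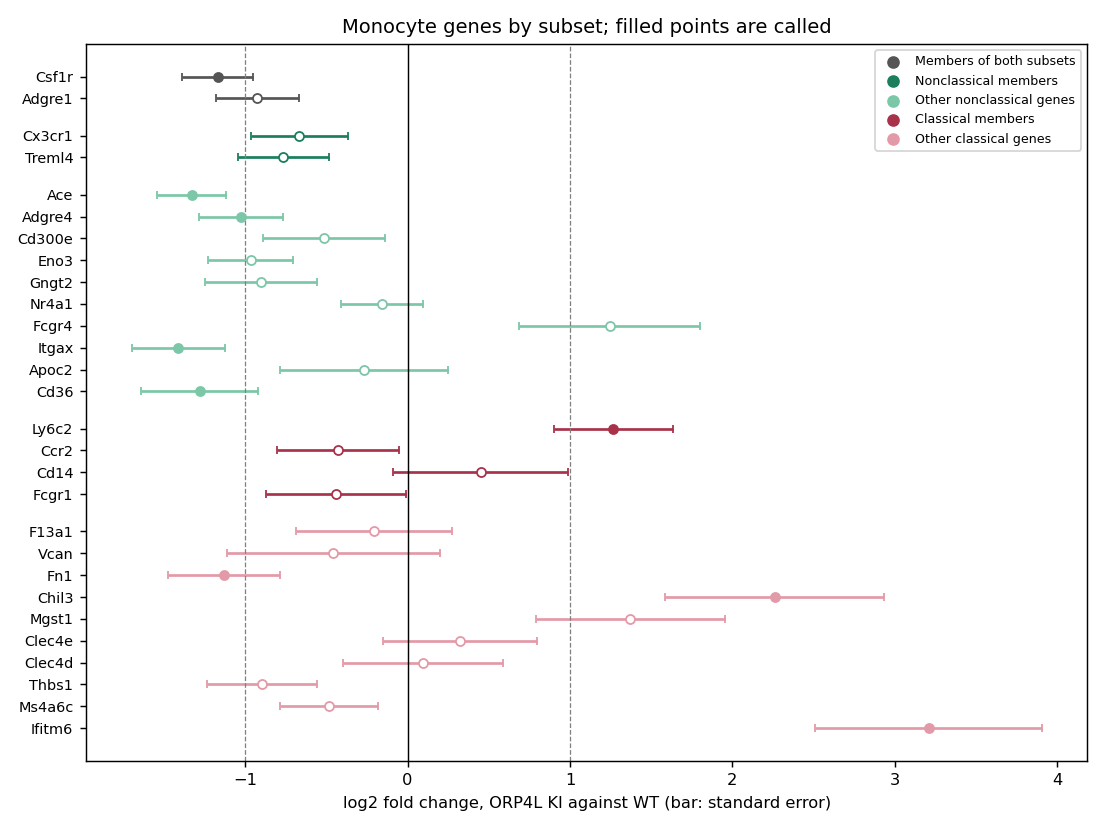
Log2 fold change of ORP4L KI against WT with its standard error for the 8 members and for 10 further genes of each monocyte subset, coloured by group, with filled points for called genes and dashed lines at the fold threshold of 1. Members of both subsets and nonclassical genes other than Fcgr4 lay below 0, while classical genes lay on both sides, from -1.13 for Fn1 to 3.21 for Ifitm6.

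Ly6c2 encodes the Ly6C antigen by which classical monocytes are sorted. It lies at chr15:75108161-75112066, in a cluster of Ly6 genes that includes its near copy Ly6c1 at chr15:75044018-75048920. The start of the coding sequence of both genes is shown, bases 1 to 180 of 396 from GENCODE M21 transcripts, because reads from identical stretches cannot be assigned to either gene by sequence. Capitals mark the 6 bases that differ here, of 9 over the whole coding sequence (97.73% identity).
Ly6c2: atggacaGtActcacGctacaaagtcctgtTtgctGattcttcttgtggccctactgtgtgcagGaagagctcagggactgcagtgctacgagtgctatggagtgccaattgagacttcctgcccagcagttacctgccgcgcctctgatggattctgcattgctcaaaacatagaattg
Ly6c1: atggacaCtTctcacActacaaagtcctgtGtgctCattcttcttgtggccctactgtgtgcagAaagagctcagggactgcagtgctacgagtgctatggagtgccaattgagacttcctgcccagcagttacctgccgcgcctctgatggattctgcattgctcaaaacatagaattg
The longest stretch without a difference was 188 bases. Of all windows of 100 bases in the longest protein-coding Ly6c2 transcript, 15.8% also occurred in another gene, which was Ly6c1. Of windows of 50 bases, 33.0% also occurred in another gene, and the genes were Ly6c1, Ly6a and I830127L07Rik. How the authors assigned such reads is not given in the sources used here, so the counts of Ly6c2 and Ly6c1 are uncertain by that part.

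Ly6c2 had 5493, 5654 and 3381 reads in WT replicates 1 to 3 and 20524, 7586, 10622 and 11630 reads in ORP4L KI replicates 1 to 4. These gave 341, 356 and 237 CPM in WT and 1249, 416, 610 and 723 CPM in ORP4L KI. All ORP4L KI libraries exceeded all WT libraries, with ORP4L KI replicate 1 far above the others. The mean was 311 ± 64.4 CPM (SD, n = 3) in WT and 750 ± 357 CPM (SD, n = 4) in ORP4L KI, 2.41-fold higher by the fit. The log2 fold change was 1.27 with a standard error of 0.37, an unadjusted p of 0.00693 and an edgeR adjusted p of 0.152, and the exact permutation p was 0.0571. The call was lost without ORP4L KI replicate 1 (log2 fold change 0.90), without WT replicate 1 (1.34), WT replicate 2 (1.37) or WT replicate 3 (1.11), and without ORP4L KI replicate 4 (1.28). Ly6c1 gave 16.9, 21.4 and 16.2 CPM in WT and 35.002, 16.6, 31.5 and 33.2 CPM in ORP4L KI, a log2 fold change of 0.68 ± 0.28 (SE) that was not called. Reads of Ly6c2 per read of Ly6c1 were 20.2, 16.6 and 14.6 in WT and 35.7, 25.0, 19.3 and 21.8 in ORP4L KI, so the groups overlapped.

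Of the 8 Ly6 locus genes, Ly6c2 and Ly6g were called higher and none lower, and leaving out any 1 WT library or ORP4L KI replicate 1 or 4 left 1 call higher. Without WT replicate 3 and without ORP4L KI replicate 3, 1 gene of the locus was called lower. Ly6g, the defining marker of granulocytes, had 12.98, 10.5 and 4.64 CPM in WT and 300, 29.5, 84.1 and 150 CPM in ORP4L KI. Its ORP4L KI libraries took the order 1, 4, 3, 2 from high to low. The granulocyte markers together had that order too, at 12.3%, 4.99%, 3.12% and 1.15% of the counts in ORP4L KI replicates 1, 4, 3 and 2, and so did the CPM of Ly6c2 and of Cd14. Within WT, replicate 3 had the lowest granulocyte share (0.216%) and the lowest Ly6c2 and Cd14. WT replicates 1 and 2 did not keep that order. Their granulocyte shares were 0.552% and 0.491%, beside 341 and 356 CPM of Ly6c2 and 332 and 832 CPM of Cd14. The log2 fold changes of the 15 granulocyte markers ran from 0.40 for Cxcr2, which was not called, to 4.72 for Prtn3. That of Ly6c2, 1.27, lay within this range. Ltf, a granule protein gene on the granulocyte list, gave a log2 fold change of 4.41 ± 0.86 (SE). The log2 ratio of Ly6c2 to Ltf reads differed by -3.21 between the means of ORP4L KI and WT. The part of granulocytes in the Ly6c2 result was not tested.

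Promoter sequences are shown for Ly6c2, the member called higher, and for Cx3cr1, the nonclassical member set against it below, each from 250 bases before to 50 bases after a RefSeq start in GRCm38.p6, on the strand of the gene. Both genes lie on the minus strand, Ly6c2 with the window chr15:75111888-75112187 and Cx3cr1 with chr9:120068247-120068546. Capitals mark the motif GAGGAAGT, a core sequence of the type bound by PU.1, searched on both strands.
Ly6c2: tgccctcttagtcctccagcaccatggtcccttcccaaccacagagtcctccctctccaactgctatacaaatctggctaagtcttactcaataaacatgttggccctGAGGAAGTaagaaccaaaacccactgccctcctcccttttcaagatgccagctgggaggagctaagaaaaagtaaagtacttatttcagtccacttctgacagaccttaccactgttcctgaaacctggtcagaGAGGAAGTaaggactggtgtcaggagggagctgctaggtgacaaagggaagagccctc
Cx3cr1: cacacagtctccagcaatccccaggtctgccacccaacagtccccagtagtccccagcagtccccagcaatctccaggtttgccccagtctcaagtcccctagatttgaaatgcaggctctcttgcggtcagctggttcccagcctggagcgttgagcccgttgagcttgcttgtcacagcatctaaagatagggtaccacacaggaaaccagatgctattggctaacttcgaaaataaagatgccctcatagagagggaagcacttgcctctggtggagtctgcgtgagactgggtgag
The motif occurred in 3.20% of the 32851 promoter windows of the same length. Windows of 5 members were searched (Ly6c2, Ccr2, Fcgr1, Cx3cr1 and Treml4), and 1 of them, Ly6c2, held it. Csf1r, Adgre1 and Cd14 were not among these, so whether their promoters hold the motif is not described here.

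Cd14 encodes the co-receptor that hands lipopolysaccharide to TLR4, at chr18:36725064-36726815. It had 5344, 13228 and 4424 reads in WT and 16996, 3837, 9464 and 14446 reads in ORP4L KI, which gave 332, 832 and 311 CPM and 1035, 210, 544 and 899 CPM. ORP4L KI held both the highest and the lowest library, and WT replicate 2 lay among the ORP4L KI values. The log2 fold change was 0.45 with a standard error of 0.54, an edgeR adjusted p of 0.807 and an exact permutation p of 0.600. It was 1.06 without WT replicate 2 and 0.17 without ORP4L KI replicate 1. Among 9 genes of the CD14 and TLR4 complex, Lbp, which encodes the lipopolysaccharide-binding protein, was called higher at 3.87 ± 0.79 (SE) and none was called lower. Tlr4 itself gave 0.72 ± 0.44 and its partner Ly96 -0.18 ± 0.38.

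Ccr2 encodes the receptor by which classical monocytes leave the marrow, at chr9:124101918-124109140. It had 1295, 2240 and 1891 reads in WT and 2310, 1751, 1272 and 669 reads in ORP4L KI, which gave 80.4, 141 and 133 CPM and 141, 95.9, 73.1 and 41.6 CPM. The groups overlapped over most of their range. The log2 fold change was -0.43 with a standard error of 0.38 and an edgeR adjusted p of 0.712, and the exact permutation p was 0.343. It was -0.75 without ORP4L KI replicate 1 and -0.20 without ORP4L KI replicate 4. The CCR2 ligand gene Ccl2 was read at 13.5 CPM or less in every library and gave -0.02 ± 0.57 (SE).

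Fcgr1 encodes CD64, the high-affinity IgG receptor, at chr3:96282909-96293969. It was the least read member, with 107, 143 and 78 reads in WT and 160, 52, 84 and 54 reads in ORP4L KI. These gave 6.65, 8.99 and 5.48 CPM in WT and 9.74, 2.85, 4.82 and 3.36 CPM in ORP4L KI. ORP4L KI replicate 1 was above all WT libraries and the other ORP4L KI libraries were below them. The log2 fold change was -0.44 with a standard error of 0.43, an edgeR adjusted p of 0.751 and an exact permutation p of 0.257. It was -0.94 without ORP4L KI replicate 1 and -0.23 without WT replicate 2. None of the 5 genes on the list of Fc gamma receptors was called, and Fcgr3, the low-affinity receptor of granulocytes and macrophages, gave 0.73 ± 0.45 (SE).

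Among 10 further classical monocyte genes, 2 were called higher and 1 lower, with a median log2 fold change of -0.0541, which ran from -0.51 without ORP4L KI replicate 1 to 0.33 without WT replicate 2. Chil3, which encodes a chitinase-like protein made by monocytes and granulocytes, had 404, 609 and 362 CPM in WT and 5439, 722, 1029 and 1594 CPM in ORP4L KI. Ifitm6, an interferon-induced transmembrane gene of myeloid cells, had 66.0, 77.4 and 39.7 CPM in WT and 1211, 118, 369 and 559 CPM in ORP4L KI. In both genes every ORP4L KI library exceeded every WT one and the order 1, 4, 3, 2 of the granulocyte markers returned. Fn1, the fibronectin gene, was called lower (-1.13 ± 0.35, SE), though its groups overlapped. F13a1 (-0.21 ± 0.48), Vcan (-0.46 ± 0.66) and Ms4a6c (-0.48 ± 0.30), which are known from classical monocytes, gave values on the side of Ccr2 and Fcgr1 and were not called. The 2 calls higher became 1 without any single WT library or without ORP4L KI replicate 4 and 3 without ORP4L KI replicate 2, and the call lower became 0 without WT replicate 2 or 3 or ORP4L KI replicate 3 or 4 and 2 without WT replicate 1.

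**Figure D3:**
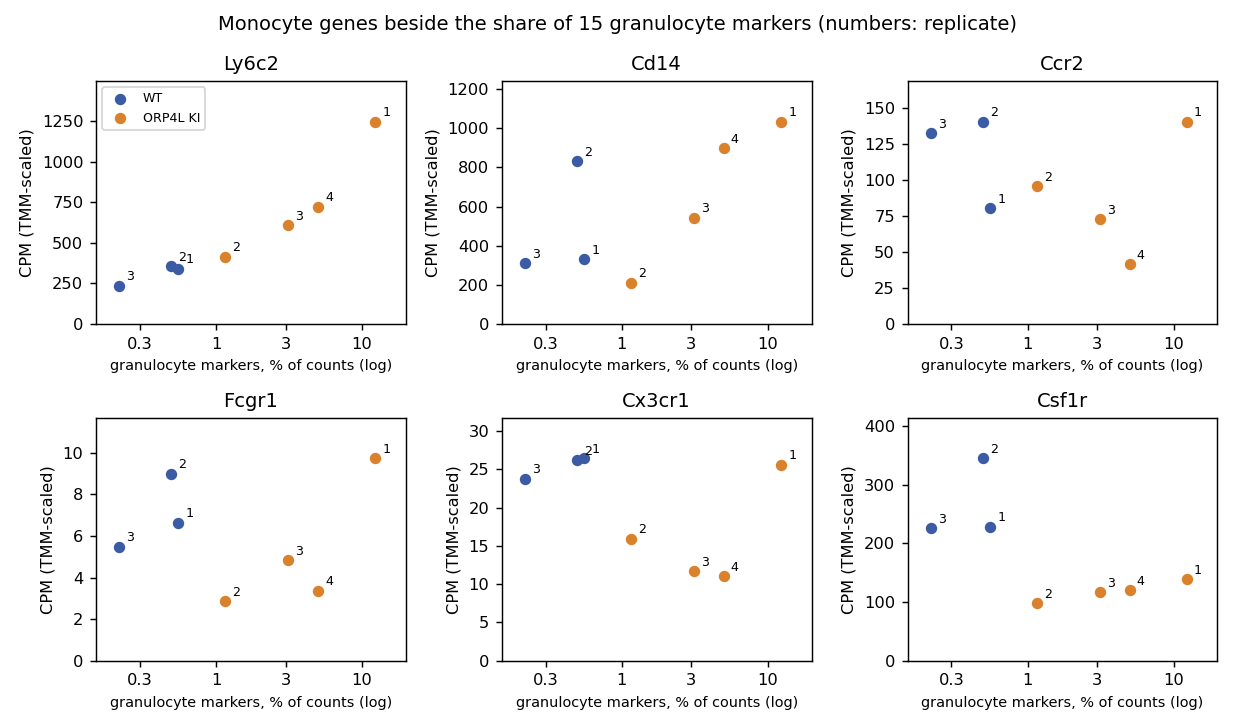
CPM (scaled by TMM) of 6 members in each library against the share of counts taken by the 15 granulocyte markers, on a log axis, WT in blue and ORP4L KI in orange, with replicate numbers. Among ORP4L KI libraries Ly6c2 and Cd14 followed the order of the granulocyte share from replicate 2 (1.15%) to replicate 1 (12.3%), Ccr2 and Cx3cr1 were highest in replicate 1 and took the reverse of that order in the other 3 libraries, and Csf1r ranged only from 98.3 to 138 CPM.

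The classical and nonclassical genes were then set against each other. The 4 classical members had a median log2 fold change of 0.0119, the 2 nonclassical members -0.72 and the 2 genes of both subsets -1.05. The sign of the classical median depended on single libraries, from -0.29 without ORP4L KI replicate 1 to 0.42 without WT replicate 2. The classical median is the midpoint of Ccr2 (-0.43) and Cd14 (0.45), the middle values of the 4. The size of the Ly6c2 value therefore does not enter the classical minus nonclassical difference of 0.73. Ccr2 and Fcgr1 (-0.44) lay on the same side of 0 as Cx3cr1 (-0.67) and Treml4 (-0.77), and Ly6c2 and Cd14 on the other. Summed, the classical members took 0.0757% to 0.134% of the counts in WT and 0.0789% to 0.203% in ORP4L KI, which overlapped. The nonclassical members took 0.00547% to 0.00797% in WT and 0.00354% to 0.00438% in ORP4L KI, and the genes of both subsets 0.0288% to 0.0405% and 0.0128% to 0.0144%, without overlap in either. These shares are of total counts, without TMM scaling. In TMM-scaled CPM the groups of Cx3cr1 and of Treml4 each overlapped, while those of Csf1r and of Adgre1 did not.

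Ratios within a library are free of the scaling between libraries. Reads of Ly6c2 per read of Cx3cr1 were 12.9, 13.5 and 9.96 in WT and 48.7, 26.0, 51.9 and 65.5 in ORP4L KI. The lowest ORP4L KI ratio, in replicate 2, was above the highest WT ratio. On the log2 scale the mean was 3.59 ± 0.24 (SD, n = 3) in WT and 5.51 ± 0.57 (SD, n = 4) in ORP4L KI, a difference of 1.92 with an exact two-sided permutation p of 0.0286, the smallest that 35 splits allow. Against Treml4 the ratios were 8.12, 6.64 and 9.20 in WT and 46.6, 24.8, 25.6 and 26.0 in ORP4L KI, again without overlap. Against Csf1r, Ly6c2 had 1.49, 1.03 and 1.05 reads per read in WT and 9.02, 4.22, 5.22 and 6.02 in ORP4L KI. The other 3 classical members did not separate the groups in any of their 6 ratios to Cx3cr1 and Treml4. Their mean log2 differences to Cx3cr1 were 0.23 for Ccr2, 1.12 for Cd14 and 0.17 for Fcgr1, and those to Treml4 were 0.21, 1.10 and 0.15. The 8 ratios were given as values, with the test on Ly6c2 to Cx3cr1 alone. That test was chosen with earlier results of these data known, so its p-value adds no independent support to the values of Ly6c2 and Cx3cr1.

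**Figure D4:**
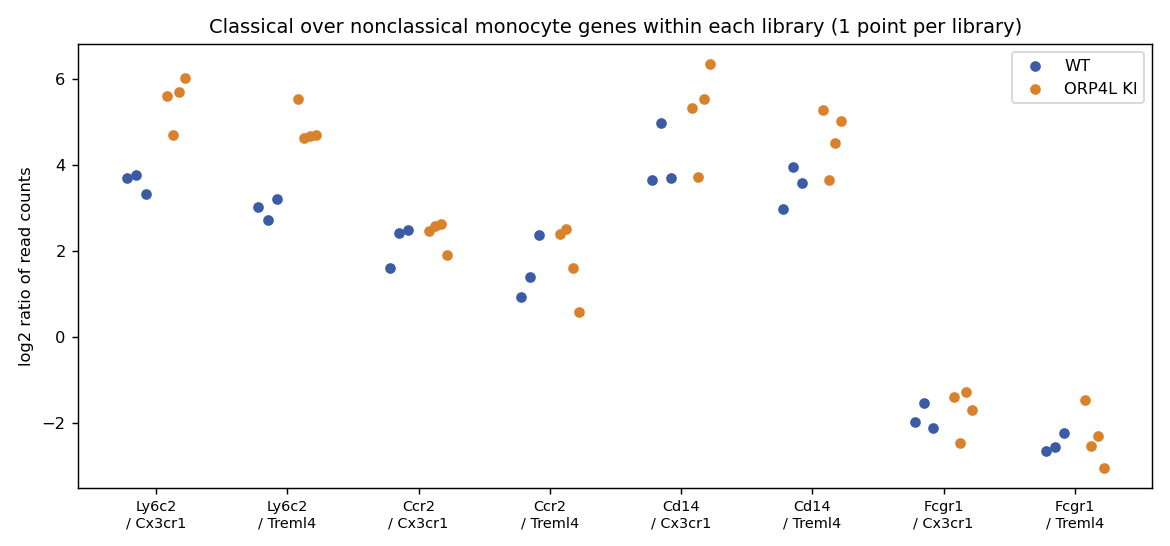
Log2 ratio of read counts of each classical member to each nonclassical member, 1 point per library, WT in blue and ORP4L KI in orange. The ratios of Ly6c2 to Cx3cr1 and to Treml4 separated the groups, with WT means of 3.59 and 2.99 and ORP4L KI means of 5.51 and 4.89, and the ratios of Ccr2, Cd14 and Fcgr1 overlapped.

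Levels of different genes were compared per length, as the deposited RPKM. In WT the order of the mean RPKM was Ly6c2 (400 ± 71.2, SD), Cd14 (307 ± 167), Csf1r (72.3 ± 14.4), Ccr2 (34.7 ± 9.11), Treml4 (24.3 ± 7.34), Adgre1 (15.6 ± 2.99), Cx3cr1 (7.19 ± 0.372) and Fcgr1 (2.86 ± 0.573), each over 3 libraries. The ranges of Ly6c2 and Cd14, of Ccr2 and Treml4, and of Treml4 and Adgre1 overlapped, and the other neighbours in this order did not. In ORP4L KI the order of the means was the same, at 843 ± 305, 370 ± 177, 29.0 ± 1.13, 23.2 ± 9.83, 12.9 ± 1.80, 7.39 ± 1.51, 4.03 ± 1.38 and 1.85 ± 0.915 over 4 libraries. There Ly6c2 (551 to 1270) cleared Cd14 (138 to 519), Cd14 cleared Csf1r and Treml4 cleared Adgre1, while the ranges of the other neighbours overlapped. Csf1r, clear of Ccr2 in WT, ranged from 27.6 to 30.0 RPKM in ORP4L KI, within the 10.7 to 32.7 RPKM of Ccr2.

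The mice were of both sexes by their sex-linked transcripts, with Xist high in WT replicate 1 and in ORP4L KI replicates 1 and 2 and Ddx3y high in the other libraries, so each comparison was also made within a sex. Among 1 WT and 2 ORP4L KI females and among 2 WT and 2 ORP4L KI males, the difference of the mean log2 CPM was -0.97 and -1.24 for Csf1r, -0.60 and -1.13 for Adgre1, and 1.08 and 1.19 for Ly6c2. For Cx3cr1 it was -0.39 and -1.14, for Treml4 -0.99 and -0.53, for Cd14 0.49 and 0.46, and for Fcgr1 -0.33 and -0.80. Ccr2 alone differed in sign, at 0.53 in females and -1.31 in males, and with 1 WT female this was not tested.

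The genes whose profile over the 7 libraries was most like that of a member were found by the root mean square difference of log2 CPM, each gene centred on its own mean, among 11742 genes. For Csf1r they were Krt80 (0.128), a keratin gene, Vangl2 (0.138), a planar cell polarity gene, and A430033K04Rik (0.143). Adgre1 came 13th in that ranking (0.211) and Treml4 came 112th (0.305), ahead of Cx3cr1 (0.420). For Ly6c2 they were Iqgap3 (0.0723), Arrb2 (0.0949) and Qsox1 (0.0982), and no other member came near, with Cd14 the closest at 0.631. For Cx3cr1 they were Cds1 (0.0998), Hist2h2be (0.181) and Oas2 (0.190), with Adgre1 at 0.355 and Ccr2 at 0.359. With 7 libraries in 2 groups, likeness in this measure largely reflects the groups and the libraries that stand apart, and it was not tested.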

How the data were processed

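RNA sequencing libraries of T-cells from 3 WT and 4 ORP4L KI mice were used. The authors sequenced mRNA libraries with a NovaSeq 6000 instrument, discarded reads under 17 bases and mapped the rest to a mouse mRNA reference with FANSe3. The authors deposited for each gene, with its splice variants merged, a read count without normalization, and an RPKM computed per length. Per the labels the build was mm10. The version of the reference and what was done with reads of more than 1 gene are not given in the sources used here. RPKM was used only for the order of levels.

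Counts were tested with edgeR 4.0.16 in R 4.3.3 after filterByExpr and TMM scaling, by the quasi-likelihood test with Benjamini-Hochberg adjustment over 13462 genes. The standard error was the log2 fold change divided by the square root of F. Library totals ranged from 12918187 to 19665679, and 16020 to 16406 genes had a read. No libraries were duplicates. Ratios used counts plus 0.5. The median of a list is a description, and no list was tested. The members, the gene lists and the tests were chosen with earlier results of these data known. The genes named were the members, genes on those lists, and the 3 genes most like Csf1r, Ly6c2 and Cx3cr1. Arrangement of the mice by sex was added after the data were seen. In simulated counts for the ORP4L KI against WT comparison over 13257 genes, 196 of 198 genes changed by a log2 fold change of 2 were recovered as called, beside 49 false calls. An adjusted p under 0.05 recovered 191, beside 7 false calls. The simulated spread of each gene followed the trend over all genes, and unchanged genes had the same level in every library. Genes with a larger spread of their own and libraries that stand apart were not simulated. These recoveries therefore do not measure how many changed genes the test finds in the real libraries. Alternatives were other scalings, filters, tests (DESeq2 1.42.0 among them), thinned counts, the replicate block, other thresholds and each library left out. Promoters came from RefSeq (GRCm38.p6) and coding sequences from GENCODE M21. A result that involves 1 further gene is not reported here.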

Additional observations from a re-analysis of the deposited data

Results flagged for a closer look

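The log2 ratio of Ly6c2 to Treml4 reads in ORP4L KI replicate 1 was 5.54, far from the other ORP4L KI libraries, which lay at 4.63, 4.68 and 4.70. It was picked out because its gap to the nearest library took up nearly all of the range of the 4 libraries. The CPM of the 8 members and the 8 ratios were examined in this way over the ORP4L KI libraries, 16 sets in all, and 1 met this measure, and chance alone gives about 1 in 20. That library also had the highest granulocyte share, 12.3% of the counts, and the part of granulocytes in the ratio was not tested.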

How the results depend on the processing

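All 8 members kept the sign of their log2 fold change in the 18 alternatives, and Ccr2, Cd14, Fcgr1 and Cx3cr1 stayed uncalled in all of them. With Ly6c2, the call was lost with the replicate block without ORP4L KI replicate 4 (1.15, unadjusted edgeR p 0.0166) and with sex as a covariate (1.22, unadjusted edgeR p 0.0130). Leaving out each library gave 0.90 to 1.46 for Ly6c2, -1.28 to -0.94 for Csf1r, -1.08 to -0.71 for Adgre1 and -1.005 to -0.51 for Treml4. The lost or gained calls were those named beside each gene, and for Adgre1 also a gain without WT replicate 1 (-1.05) and without ORP4L KI replicate 1 (-1.08). Adgre1 also gained its call with libraries scaled by total counts alone (-1.08). The adjusted p ranged from 0.000246 to 0.313 for Csf1r and from 0.0173 to 0.404 for Ly6c2 over the alternatives. Members called numbered 1 with the replicate block and 1 with sex as a covariate, and 0 to 2 with each library left out. Members at an adjusted p under 0.05 numbered 1 when scaled by total counts, 1 when no filter was used, 3 with the Wald, exact and likelihood ratio tests each, and 0 to 2 with each library left out. Those without overlap numbered 5 with total counts alone and 3 to 5 with each library left out. Over all genes, 1091 were called at an unadjusted p under 0.05, 489 with the replicate block, and 328 (without WT replicate 2) to 805 (without ORP4L KI replicate 2) with each library left out. Total counts alone moved the median of all genes by -0.14 and called 275 genes higher and 407 lower, against 320 and 310. The Ly6c2 to Cx3cr1 difference was 1.96 in thinned counts (exact permutation p = 0.0571), 1.75 over pairs 1 to 3 (replicate block, smallest possible exact p = 0.250), and 1.75 to 2.19 with each library left out, where 0.0667 and 0.1 are the smallest p possible. The causes were not tested.

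Replicate numbers were not taken as pairs, since correlations of same-numbered libraries were 0.15, -0.54 and -0.00184. Standard errors of the members ran from 0.22 (Csf1r) to 0.54 (Cd14) on the log2 scale and did not follow the number of reads, since Cd14 was among the most read. No detection limit was computed.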
